A study of Mus musculus with 17 samples.

Results

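Kidney endothelial cells were taken from 9 single-cell libraries of cells dissociated from mouse kidney, and 1807 of the 61744 cells kept in these libraries were members (2.93%), while the whole series held 91829 kept cells in 17 libraries. A kept cell had at least 200 genes and at most 20% of its UMIs (unique molecular identifiers, which mark single mRNA molecules) from mitochondrial genes. A member had at least 3 UMIs in sum of Pecam1, Emcn, Egfl7 and Cdh5 with at least 2 of these genes found, no UMI of the leukocyte gene Ptprc and at most 1 UMI of the proximal tubule gene Slc34a1. The levels of these 6 genes are therefore values that the members were chosen by, and they are given as a description only. Among the members of the 8 larger libraries, Pecam1 was found in 83.3 to 94.6% of cells, Emcn in 77.8 to 99.0%, Egfl7 in 97.1 to 100% and Cdh5 in 72.3 to 93.7%. In all, 22 members held exactly 3 UMIs of the 4 genes, just inside the threshold, and 17 other kept cells held exactly 2 UMIs of 2 of the genes, just outside it.

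The mice were 8 weeks old, and all carried PDGFRb-Cre and the Z/EG reporter, which turns on GFP after Cre recombination, so the controls carried Cre and reporter as well. SARATg mice also carried a human ZFYVE9 cDNA (encoding SARA, a FYVE domain protein of early endosomes) at Rosa26 behind a lox-stop-lox cassette, and mice without it are called SARAWT. Mice received intraperitoneal aristolochic acid (AA) at 5 mg/kg, 3 times a week for 3 weeks, or vehicle by the same route, and GFP+ cells were sorted after digestion with Liberase TM. There were 3 SARAWT vehicle, 3 SARAWT AA, 2 SARATg vehicle libraries and 1 SARATg AA library, and nothing in the sources used here says whether libraries came from separate mice, so p-values measure the spread between these libraries. The sort rests on a Cre driven by the promoter of a mural cell gene, and Pdgfrb itself was at 17.1, 7.96 and 0 CPM (UMIs of the gene per 1000000 UMIs summed over a library's endothelial cells) in the SARAWT vehicle libraries, 18.4 and 0 in SARAWT AA libraries 1 and 2, 3.78 and 18.9 in SARATg vehicle and 9.45 in SARATg AA. Endothelial cells in these libraries are thus cells that passed a gate aimed at another cell type, and their number per library depends on that gate.

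As background, the kidney holds several endothelia that differ by segment. Glomerular and peritubular capillaries are fenestrated, and in peritubular capillaries the fenestrae are closed by diaphragms built of Plvap. Descending vasa recta, which carry blood into the medulla, have a continuous endothelium with the water channel Aqp1 and the urea transporter Slc14a1, whereas the ascending vasa recta are fenestrated and vein-like. Aristolochic acid is a plant nephrotoxin that proximal tubule cells take up and that forms DNA adducts, and loss of peritubular capillaries is a known accompaniment of chronic tubular injury. ETS family factors such as Erg bind a GGAA core and are known regulators of endothelial genes, and MEIS factors bind a TGACAG element.

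To show the regulatory sequence of genes the results turn on, the 250 bases before the annotated start are printed for 2 genes that the members were chosen by and for 3 genes that were higher in kidney than in skin endothelial cells. Sequences are from RefSeq on GRCm38.p6, all on the plus strand, and capitals mark matches of the ETS motif AGGAAG on either strand (written CTTCCT where the match is on the minus strand). Emcn, encoding the endothelial sialomucin endomucin, starts after chr3:137340828-137341077. Egfl7, a secreted endothelial factor, has several annotated starts, and the window with the most matches, chr2:26580833-26581082, is shown. Ramp3 encodes a partner of the adrenomedullin receptor (chr11:6658283-6658532), Tbxa2r the thromboxane receptor (chr10:81328018-81328267, of 2 windows the one with more matches) and Esm1 the secreted proteoglycan endocan (chr13:113209409-113209658).

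Emcn: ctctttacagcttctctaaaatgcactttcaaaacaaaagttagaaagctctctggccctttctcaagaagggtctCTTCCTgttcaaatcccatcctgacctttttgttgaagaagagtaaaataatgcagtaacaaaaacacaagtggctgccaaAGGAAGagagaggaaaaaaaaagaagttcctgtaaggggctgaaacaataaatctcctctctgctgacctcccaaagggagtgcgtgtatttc
Egfl7: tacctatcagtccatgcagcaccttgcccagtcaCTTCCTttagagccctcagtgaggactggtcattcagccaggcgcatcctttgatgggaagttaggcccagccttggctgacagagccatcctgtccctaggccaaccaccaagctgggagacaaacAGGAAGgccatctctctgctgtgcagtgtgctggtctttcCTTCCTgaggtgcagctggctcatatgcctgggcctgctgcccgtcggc
Ramp3: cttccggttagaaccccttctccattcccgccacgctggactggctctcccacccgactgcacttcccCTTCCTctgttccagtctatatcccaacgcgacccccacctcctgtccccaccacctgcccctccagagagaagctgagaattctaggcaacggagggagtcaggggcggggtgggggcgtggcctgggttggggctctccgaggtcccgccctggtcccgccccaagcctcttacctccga
Tbxa2r: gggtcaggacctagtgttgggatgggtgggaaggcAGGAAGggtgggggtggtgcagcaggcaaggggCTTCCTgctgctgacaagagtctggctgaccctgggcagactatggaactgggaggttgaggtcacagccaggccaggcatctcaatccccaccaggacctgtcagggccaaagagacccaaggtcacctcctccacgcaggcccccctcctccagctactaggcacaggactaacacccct
Esm1: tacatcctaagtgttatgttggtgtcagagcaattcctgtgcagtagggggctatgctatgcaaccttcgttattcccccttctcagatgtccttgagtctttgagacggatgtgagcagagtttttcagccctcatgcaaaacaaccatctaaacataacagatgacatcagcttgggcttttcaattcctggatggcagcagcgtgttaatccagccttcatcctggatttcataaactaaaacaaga

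The windows held 2 matches in Emcn, 3 in Egfl7, 1 in Ramp3, 2 in Tbxa2r and 0 in Esm1, and a match is a match of letters only. The windows not shown held 1 and 0 matches in Egfl7 and 0 in Tbxa2r. Of all 32851 promoters in the table, 29.5% held the motif. It was in 40.5% of the 200 promoters that matched 156 of 224 genes at least 10 times as high in endothelial cells as in other kidney cells and at 100 CPM or more. Among 166 promoters that matched 126 of the 164 genes called higher in kidney than in skin and at least 2 times as high in endothelial as in other kidney cells, the share was 32.5%. The motif TGACAG (both strands) was in 15.9%, 17.5% and 13.3% of the same 3 sets. Pecam1, Cdh5 and Plvap had no entry.

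Genes outside the rule also marked the members as endothelial. All 18 genes of a pan-endothelial list other than the 4 rule genes were at least 5 times as high in the members as in the other kept cells. The summed level of these 18 genes was 11535 to 14821 CPM in the 8 libraries with at least 10 members, and 19.6 to 173 CPM in the other cells. Flt1, a VEGF receptor, was at 1915, 1294 and 1123 CPM in SARAWT vehicle, 1324 and 1236 in SARAWT AA libraries 1 and 2, 1977 and 1882 in SARATg vehicle and 1132 in SARATg AA, against 1.37 to 22.9 CPM in other cells. Tie1, an endothelial receptor tyrosine kinase, ranged from 212 to 491 CPM in these 8 libraries, and Ptprb, an endothelial receptor phosphatase, from 720.4 to 1719 CPM. Markers of other cells were present at several levels. Of 4 podocyte genes, Podxl, which is also an endothelial gene, gave nearly all of the sum of 345 to 599 CPM, the other 3 summed to 0 to 8.51 CPM, and Nphs1 was at 0 in all 9 libraries. Ptprc was at 0 by the rule. The sum of 12 proximal tubule genes was 211 to 4462 CPM in the 8 libraries against 5537 to 70086 CPM in other cells, and the sum of 11 leukocyte genes was 172 to 2044 CPM against 1765 to 29482 CPM, and the part of free RNA in these sums was not tested. These lists hold Slc34a1 and Ptprc, which the rule limits in members, so their lower sums are in part set by the rule. The 7 pericyte and smooth muscle genes summed to 9.08 to 389 CPM against 10.1 to 68.5 CPM in other cells, and 6 of them had a higher mean in the members. Fibroblast genes summed to 0 to 182 CPM against 0.992 to 237 CPM, thick limb and distal genes to 3.19 to 721 CPM against 152 to 1254 CPM, and collecting duct genes to 0 to 488 CPM against 30.7 to 304 CPM. Prox1, which specifies lymphatic endothelium, was found in 23 members, and the proliferation gene Mki67 in 6.

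Libraries differed in depth and in ways the groups do not explain. Total UMIs per kidney library were 28660151 to 137093834, and the members held 7485522 UMIs in all, and the median member had 2701 to 4849 UMIs in the 8 larger libraries. SARAWT AA library 3 held 2 members, so 1 UMI there equals 53.9 CPM. It was left out of all gene fits and of statements on the overlap of gene levels, but not of shares of cells, and its proximal tubule sum was 15689 CPM. SARAWT AA library 2 held 18 members, with 18.2 CPM per UMI, so a gene at 0 there allows up to 54.5 CPM (3 counts). Of the members, 35 were predicted doublets and 32 shared a barcode with another library. Xist, which is expressed from the inactive X chromosome, was at 557 CPM in SARAWT vehicle library 2 and 742 CPM in the SARATg AA library and at 0 in the others, and the Y-linked Ddx3y was at 0 in those 2 libraries and at 105, 92.6, 91.8, 72.7, 114 and 111 CPM in the other libraries of at least 10 members, while the labels give no sex. Across the 10031 genes tested, SARAWT AA library 1 was most like SARAWT vehicle library 3 (Pearson r = 0.95 across genes on a log scale, with genes not independent) and less like SARAWT vehicle libraries 1 and 2 (r = 0.881 for both). With SARAWT AA library 2, the only other library of its group in the fits, r was 0.785, and that library of 18 cells stood apart from every other (r = 0.753 to 0.791).

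The targeted gene went against 2 labels. Mouse Zfyve9 (ENSMUSG00000034557, chr4:108637466-108780798 on GRCm38) was at 68.5, 37.1 and 16.0 CPM in the SARAWT vehicle libraries, 370.1 and 54.5 in SARAWT AA libraries 1 and 2, 160.5 and 163 in SARATg vehicle and 13.0 in SARATg AA. The SARATg vehicle libraries were above all SARAWT vehicle libraries, but the highest level was in the library labelled SARAWT AA 1 and the lowest of the 8 in the library labelled SARATg AA 1. In all other kept cells the same 3 libraries were highest, with 161 CPM in the library labelled SARAWT AA 1 and 96.7 and 93.8 in SARATg vehicle, while the library labelled SARATg AA 1, at 20.7 CPM, lay within the 10.3 to 32.0 CPM of the SARAWT rest. The kidney gene list has no entry for the human cDNA, and how much of its RNA is counted under mouse Zfyve9 was not tested. In edgeR's quasi-likelihood test, Zfyve9 differed by a log2 fold change of 2.09 ± 0.63 (SE) between SARATg and SARAWT vehicle, with an adjusted p of 1. Results on AA or on SARATg AA below use the labels. Counts of called genes without both libraries are given for AA in SARAWT, for SARATg vehicle and for kidney against skin. Without them no SARATg AA library remains, so its contrasts could not be fitted, and the test of the AA effect against other kept cells and the cluster shares were not recomputed without both.

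The first comparison asked how many of the sorted kidney cells were endothelial in each condition. Endothelial cells were the largest share in SARATg vehicle libraries and the smallest in 2 SARAWT AA libraries. They were 1.55% (137 of 8822 cells, exact 95% binomial interval 1.31 to 1.83%), 1.02% (103 of 10057, 0.837 to 1.24%) and 2.32% (161 of 6943, 1.98 to 2.70%) of kept cells in SARAWT vehicle libraries 1 to 3. In SARAWT AA they were 1.52% (111 of 7317, 1.25 to 1.82%), 0.450% (18 of 4003, 0.267 to 0.710%) and 0.0378% (2 of 5292, 0.00458 to 0.136%). In SARATg vehicle they were 11.6% (691 of 5944, 10.8 to 12.5%) and 6.5% (388 of 5969, 5.89 to 7.16%), and in SARATg AA 2.65% (196 of 7397, 2.30 to 3.04%). Intervals cover counting error only. The SARAWT AA mean of 0.668% ± 0.763 (SD, n = 3) was 0.964 percentage points below the vehicle mean of 1.63% ± 0.651 (n = 3), a difference that was not separated from the spread between libraries (two-sided exact permutation test, p = 0.2, smallest possible 0.1). The library labelled SARAWT AA 1 lay within the vehicle range and the other 2 AA libraries below it, and without that library the difference was -1.39 points (exact permutation p = 0.2). The SARATg vehicle mean of 9.06% ± 3.62 (n = 2) was 7.43 points above the SARAWT vehicle mean with no overlap between the groups (exact permutation p = 0.2, the smallest that 3 against 2 libraries allow).

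The other sorted cells set the denominator. Cells without Ptprc UMIs were 85.5, 82.0 and 24.8% of kept cells in SARAWT vehicle libraries 1 to 3, 15.8, 38.0 and 15.3% in SARAWT AA, 47.2 and 46.6% in SARATg vehicle and 31.6% in SARATg AA, so SARAWT vehicle library 3 had far more leukocytes than libraries 1 and 2. Cells with at most 1 Slc34a1 UMI were 20.8, 24.6 and 87.5% in SARAWT vehicle, 93.6, 74.9 and 89.3% in SARAWT AA, 70.5 and 73.8% in SARATg vehicle and 85.7% in SARATg AA. Among cells that were neither, the endothelial share was 15.8, 9.31 and 15.8% in SARAWT vehicle, 14.0, 2.49 and 0.439% in SARAWT AA, 52.1 and 25.8% in SARATg vehicle and 12.8% in SARATg AA. The denominator changed the size of the AA difference. Among cells without Ptprc UMIs the endothelial share averaged 3.67% ± 5.15 in SARAWT AA and 4.14% ± 4.52 in vehicle (exact permutation p = 0.7), with the library labelled SARAWT AA 1, at 9.59%, above all vehicle libraries. Among cells with at most 1 Slc34a1 UMI it averaged 0.755% ± 0.801 in AA and 4.77% ± 2.47 in vehicle, with no overlap (exact permutation p = 0.1, the smallest possible). With both conditions, a denominator added after the data were seen, SARAWT AA averaged 5.65% ± 7.32 against 13.6% ± 3.75 in vehicle (exact permutation p = 0.2), and SARATg vehicle 38.9% ± 18.6 (exact permutation p = 0.2). SARATg vehicle was above all SARAWT vehicle libraries with each of these denominators (exact permutation p = 0.2 each). Fewer endothelial cells in the tissue, fewer that passed the gate and more of other cells cannot be told apart from these shares.

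**Figure D1:**
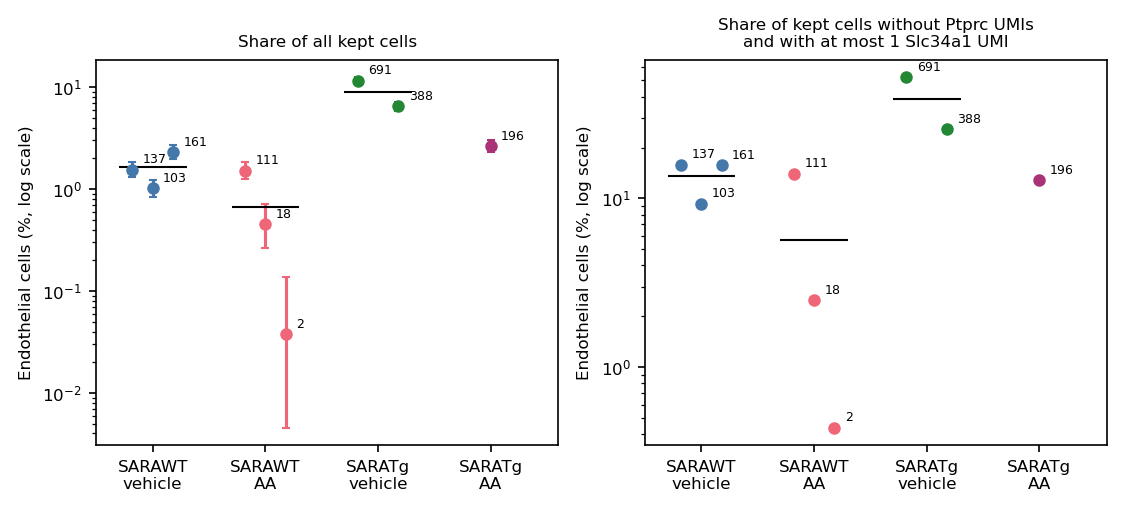
Endothelial cells as a share of all kept cells (left, %, log scale, with exact 95% binomial intervals) and of kept cells without Ptprc UMIs and with at most 1 Slc34a1 UMI (right, %, log scale). Each point is 1 library with its number of endothelial cells beside it, and horizontal lines are group means. The 2 SARATg vehicle libraries lie above the 3 SARAWT vehicle libraries in both panels, and SARAWT AA spans 0.0378 to 1.52% of all kept cells.

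Clustering the 1807 cells on variable genes, without the rule genes and the condition gene lists, gave 8 clusters, and 3 of these could be named from marker lists. Cluster 1 (568 cells, 31.4%) was peritubular capillary-like, with Igfbp5 and Igfbp3, which bind insulin-like growth factors, at 5777 and 3222 CPM of summed UMIs, the natriuretic peptide clearance receptor Npr3 at 588 CPM and Esm1 at 3067 CPM. Of that list 4 of 10 genes met the marker rule, and Plvap, at 2777 CPM, was lower than in clusters 3, 4 and 7 (3394, 5197 and 3962 CPM). The arterial genes Hey1 and Efnb2 also met the rule in cluster 1. Cluster 3 (473 cells) was tip-like, a name for the sprouting state. Its apelin ligand Apln and receptor Aplnr were at 131 CPM each, the potassium channel subunit Kcne3 at 85.5 and Esm1 at 1861 CPM. Of the tip-like list, 5 genes met the marker rule. So did 3 peritubular capillary genes, Igfbp5 (3243 CPM), Igfbp3 (3156 CPM) and Esm1, which is on both lists. All 3 were higher in cluster 1. In a coarser clustering, Esm1, Npr3, Igfbp5 and Apln were among the leading genes of 1 cluster of 1097 cells. A finer clustering held a cluster of 192 cells with 7 tip-like markers. The split between clusters 1 and 3 thus depended on the clustering. Cluster 4 (232 cells) was vein or ascending vasa recta-like, with Plvap at 5197, the proteoglycan Bgn at 519, the leukocyte adhesion molecule Vcam1 at 414 and Selp at 21.3 CPM, although its leading genes were the chaperone Cryab (2026 CPM) and Igf1 (424 CPM). Cluster 5 (104 cells) held descending vasa recta genes, with Aqp1 at 6021, Slc14a1 at 899.6 and the actin-severing protein Scin at 859 CPM, and arterial genes, with Sox17 at 1310.1 and Gja4 at 512 CPM, and keeps its number because hemoglobin genes were among its leading genes, with 1340 of 1344 Hbb-bs UMIs from 1 cell. Cluster 6 (79 cells) was not named. Its leading genes included the juxtaglomerular gene Ren1, 3 hemoglobin genes, smooth muscle Acta2, Timp4 and the fatty acid transporter Cd36. Single cells of SARATg vehicle library 2 held 829 of its 1062 Ren1 UMIs and 1135 of its 1142 UMIs of the hemoglobin gene Hbb-bs. Ren1 was at 3125 CPM, and at 722 CPM without its top cell. Acta2, at 639 CPM, was found in 5 of its cells. Cd36 (3790.0 CPM) was found in 73 and Timp4 (1507 CPM) in 63 of the 79 cells, and the fatty acid carrier Fabp4, not among the leading genes, was at 59083 CPM. SARATg vehicle library 2 gave 44 of the cells. Clusters 2, 7 and 8 carried other cells' genes, some of them mostly from single cells. Cluster 2 (72 cells, 12.5% predicted doublets) had Spp1 at 9572 CPM, with 3409 of 6162 UMIs from 1 cell, and collecting duct Aqp2 at 724 CPM, with 452 of 466 UMIs from 1 cell. In cluster 2, 7 artery genes, such as Mgp (1417 CPM) and Fbln5 (329 CPM), and 5 descending vasa recta genes also met the marker rule, and it stayed unnamed. Cluster 8 (54 cells, 18.5% predicted doublets) had the tubule gene Kap at 19943 CPM, with 3591 of 4348 UMIs from 1 cell, and the lowest median depth, 1381.5 UMIs. Cluster 7 (225 cells) held immunoglobulin Igkc at 9866 CPM, but 9539 of its 9784 Igkc UMIs came from 1 cell and the level without that cell was 253 CPM. Macrophage C1qa, at 213 CPM, was found in 17 of its cells. It also held vein genes, with Bgn at 608, Gas6 at 1059.8, Vcam1 at 337 and Selp at 36.3 CPM, and stayed unnamed. In no cluster did 3 glomerular capillary genes meet the marker rule. Of that list, Ehd3 (430 CPM) and Smad6 (109 CPM) were highest in cluster 1 and others elsewhere, such as Tbx3 and Lpl in cluster 6. The clusters therefore do not show whether glomerular cells were among the members.

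**Figure D2:**
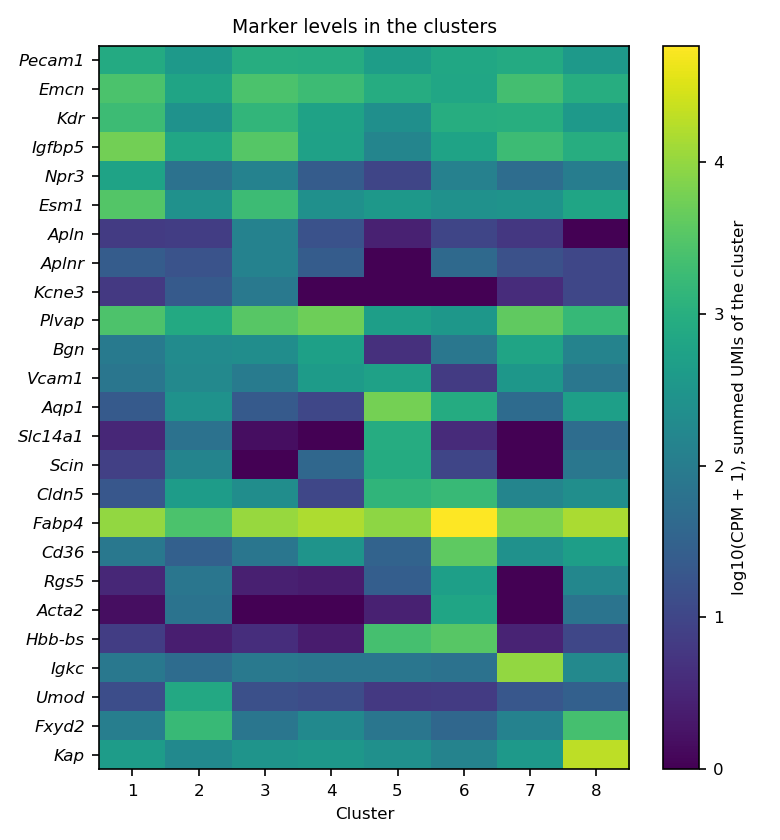
Marker genes (rows) in the 8 endothelial clusters (columns), as log10 of CPM + 1 of the UMIs summed over each cluster. Pecam1 is present in all 8 columns, Igfbp5 and Esm1 are strongest in clusters 1 and 3, Aqp1, Slc14a1 and Scin in cluster 5, Fabp4 and Cd36 in cluster 6, and Umod and Kap in clusters 2 and 8.

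Cluster 5, the cells with descending vasa recta genes, made up 10.2, 21.4 and 7.45% of the endothelial cells of SARAWT vehicle libraries 1 to 3, 5.41, 0 and 0% of SARAWT AA, 2.17 and 6.70% of SARATg vehicle and 4.59% of SARATg AA. All 3 SARAWT AA libraries lay below the vehicle libraries (difference -11.2 percentage points, exact permutation p = 0.1, the smallest possible), as did both SARATg vehicle libraries (-8.57 points, p = 0.2, the smallest possible in that exact permutation test). Cluster shares of SARAWT AA libraries 2 and 3, here and below, rest on 18 and 2 cells. No interval for counting error was computed for cluster shares, so a share of 0 there may reflect few cells. The vein or ascending vasa recta-like cluster 4 held 16.1, 28.2 and 31.1% in SARAWT vehicle, 21.6, 0 and 0% in SARAWT AA, 5.07 and 9.54% in SARATg vehicle and 17.9% in SARATg AA, and SARATg vehicle was below SARAWT vehicle with no overlap (7.30% ± 3.16 against 25.1% ± 7.95, exact permutation p = 0.2). The summed level of 10 vein and ascending vasa recta genes differed less, at 4834 and 4383 CPM in SARATg vehicle and 5106, 4843 and 5602 CPM in SARAWT vehicle (median log2 fold change -0.23), and cluster 7, which also held vein genes, made up 17.8 and 11.9% in SARATg vehicle and 14.6, 7.77 and 6.21% in SARAWT vehicle. The peritubular capillary-like cluster 1 held 36.5, 29.1 and 14.9% in SARAWT vehicle, 12.6, 38.9 and 0% in SARAWT AA, 36.9 and 34.5% in SARATg vehicle and 27.6% in SARATg AA. Its groups overlapped in both comparisons. Clusters 1 and 3 shared peritubular capillary markers, so their shares are not shown to be those of separate cell types. The tip-like cluster 3 held 11.7, 3.88 and 31.7% in SARAWT vehicle, 35.1, 16.7 and 50.0% in SARAWT AA, 32.3 and 16.8% in SARATg vehicle and 36.2% in SARATg AA, and it was lowest in SARAWT vehicle libraries 1 and 2. Clusters 2, 7 and 8 also differed between SARAWT AA and vehicle without overlap (+18.6, -6.77 and -2.54 points, exact permutation p = 0.1 each), where 1 of the 2 cells of SARAWT AA library 3 lay in cluster 2 (50%). Without SARAWT AA library 3 and its 2 cells the differences of clusters 2, 5, 6, 7 and 8 were 4.46, -10.3, 18.9, -5.4 and -2.39 points, each with no overlap and an exact permutation p of 0.2, the smallest that 3 against 2 allow.

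**Figure D3:**
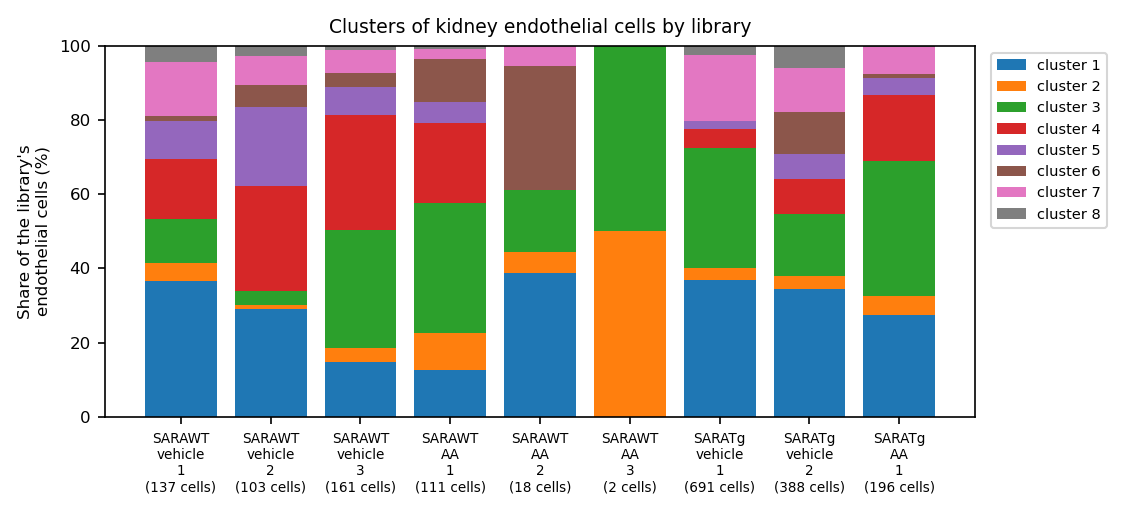
Share of each library's endothelial cells in clusters 1 to 8 (stacked bars, %), with the number of endothelial cells under each bar. Cluster 5 is largest in SARAWT vehicle library 2 (21.4%) and absent from SARAWT AA libraries 2 and 3, which hold 18 and 2 cells.

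The comparison of SARAWT AA with SARAWT vehicle asked which endothelial genes differed after aristolochic acid. No gene passed an adjusted p of 0.05 in edgeR's quasi-likelihood test on summed UMIs (0 of 10031 genes, 0% called, 400 at an unadjusted p under 0.05, and 6 called by DESeq2). The values below are therefore descriptions. They compare SARAWT AA libraries 1 and 2 with the 3 vehicle libraries, and "no overlap" means that both AA libraries lay on one side of all vehicle libraries, which was the case for 9.62% of the genes tested on the higher side and 12.1% on the lower side. Of the 1212 genes on the lower side, 630 were at 0 UMIs in AA library 2, and for 612 of these the 54.5 CPM that a 0 allows lay above at least 1 vehicle library, so counts on the lower side rest in part on that library's depth. The median log2 fold change over all genes was -0.09. Without the libraries labelled SARAWT AA 1 and SARATg AA 1, 0 genes were called (674 at an unadjusted p under 0.05) and 1 AA library remained.

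Fatty acid and lipid uptake genes lay higher in SARAWT AA. Of 11 such genes, 6 were higher in both AA libraries than in all vehicle libraries and 0 lower, against 9.62 and 12.1% of all genes tested. Their median log2 fold change was 1.52, and none passed the adjusted test. Fabp4, the cytosolic fatty acid carrier of capillary endothelium, was at 7051, 9499.6 and 10687 CPM in SARAWT vehicle and at 12996 and 46299.8 CPM in SARAWT AA libraries 1 and 2. Cd36, the fatty acid translocase, was at 278, 318 and 118 CPM in vehicle and 349 and 3508 in AA. For both genes AA library 1 was just above the vehicle range and AA library 2, with 18 cells, far above it. Lpl, lipoprotein lipase, was at 81.3, 69.0 and 41.5 CPM in vehicle and 372 and 927 in AA, and its endothelial anchor Gpihbp1 at 965, 464 and 1309.9 in vehicle and 1517 and 3272 CPM in AA. Tcf15, a transcription factor of this fatty acid uptake program, was at 36.4, 74.3 and 66.0 CPM in vehicle and 165 and 963 in AA, and the glycerol channel Aqp7 at 2.14, 10.6 and 6.38 in vehicle and 41.3 and 491 CPM in AA. Over these 6 genes, edgeR's log2 fold changes were 1.21 to 4.80, with an adjusted p of 0.976 for each. These genes were highest in cluster 6, which made up 11.7 and 33.3% of the cells of AA libraries 1 and 2 and 1.46 to 5.83% in vehicle. A different mix of cells and different levels within cells thus cannot be told apart for these genes. Cluster 6 also met all 7 pericyte and smooth muscle markers and had the highest median mitochondrial share of the clusters (7.96%, against 2.95 to 5.29%). The part of either in the lipid genes was not tested. In SARATg the levels of Cd36 were 71.2 and 785 CPM in vehicle and 82.7 CPM in AA, and those of Lpl were 12.9 and 188 CPM in vehicle and 5.90 CPM in AA. Lpl was also at 40.7 to 885 CPM in the other kept cells, whereas Gpihbp1 was at 0.0448 to 26.3 CPM there.

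Basement membrane and matrix genes came next. Of 23 mesenchymal and matrix genes tested, 7 were higher without overlap and 2 lower, against 9.62 and 12.1% of all genes tested, with a median log2 fold change of 0.06. The basement membrane collagen gene Col4a1 was at 639.6, 703 and 955 CPM in vehicle and 1103 and 1491 in AA, and its partner Col4a2 at 334, 342 and 608 in vehicle and 629 and 1345 CPM in AA. Sparcl1, a matricellular protein, was at 154, 268 and 353 CPM in vehicle and 494 and 909 in AA, and Sparc at 1472, 1581 and 3706 in vehicle and 3815 and 4090.1 CPM in AA. In several of these genes SARAWT vehicle library 3 was close to AA library 1 and the other vehicle libraries were lower. Myofibroblast genes were near 0: Col1a1 was at 0 in all SARAWT libraries, and Col3a1 was at 0, 0 and 0 in vehicle and 6.12 and 0 CPM in AA. Acta2 was at 4.28, 2.65 and 20.2 in vehicle and 44.3 and 0 CPM in AA, with overlap. Pericyte and smooth muscle genes summed to 245 and 109 CPM in AA and 29.9, 34.5 and 119 CPM in vehicle (median log2 fold change 2.57 over 6 tested, 0 called), and their part in the matrix genes was not tested. Timp3, an inhibitor of matrix proteases, was lower in AA (1506 and 963 CPM) than in vehicle (2109, 2114 and 1835 CPM), and so was Col18a1 (56.6 and 0 against 94.1, 169.7 and 76.6 CPM).

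Genes of descending vasa recta and of fenestrae lay lower in AA more often than higher. That also held for all genes tested, with 12.1% lower and 9.62% higher without overlap. Of 9 descending vasa recta genes, 3 were lower without overlap and 0 higher (median log2 fold change -0.49). Slc14a1 was at 175, 525 and 53.2 CPM in SARAWT vehicle and 35.2 and 0 in AA, where 0 UMIs in library 2 allow up to 54.5 CPM. Slc5a3, the myo-inositol transporter that accumulates osmolyte, was at 111, 191 and 48.9 CPM in vehicle and 29.1 and 18.2 in AA, and Scin at 141, 398 and 119 in vehicle and 115 and 18.2 CPM in AA. For both genes the 18.2 CPM of AA library 2 is 1 UMI, and 3 UMIs there would be 54.5 CPM, above vehicle library 3 for Slc5a3. Aqp1 itself overlapped, at 546, 2745 and 701 in vehicle and 662 and 945 CPM in AA. The summed level of the 9 genes was 3251 and 4217 CPM in AA, inside the vehicle range of 3002 to 7086 CPM. Slc14a1, Scin and Slc5a3 were highest in cluster 5, whose share was also lower in AA, so a different mix of cells and different levels within cells cannot be told apart for these genes. Among 13 junction and fenestra genes, 4 were lower without overlap and 0 higher: Plvap (2621 and 909 against 3444, 2840.3 and 3113 CPM), the endocytic ATPases Ehd3 (135 and 18.2 against 449, 204 and 187) and Ehd4 (760.0 and 418 against 1177, 1209 and 861), and Ctnnb1. The 13 include the rule genes Pecam1 and Cdh5, which are not among the 4. Of 10 peritubular capillary genes, 2 were higher (Cd36 and Lpl) and 2 lower without overlap. Igfbp5 was at 4176, 1546 and 1449 CPM in vehicle and 949.7 and 891 in AA, with the third AA library at 377 CPM from 2 cells, and the other lower gene was Plvap.

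Stress and immune gene groups are read against the background of 9.62 and 12.1%. Of 29 interferon and class I genes, 3 were higher and 0 lower without overlap, and of 21 p53 targets, 2 were higher and 3 lower. Cdkn1a, the p53 target that arrests the cell cycle, was at 143, 162 and 1119 CPM in vehicle and 949.7 and 491 in AA, with SARAWT vehicle library 3 above both AA libraries. Of 11 oxidative stress and metallothionein genes, 1 was higher and 3 lower (median log2 fold change -0.72). The metallothionein Mt1 was likewise highest among these in vehicle library 3, at 101, 10.6 and 3346 CPM in vehicle and 839.6 and 18.2 in AA. Of 18 immediate early and heat shock genes, 2 were higher and 1 lower, of 19 BMP and TGF-beta genes 0 and 2 (such as Bmpr2, a BMP receptor, at 136 and 109 against 329, 310.3 and 148 CPM), and of 16 VEGF, angiopoietin and Notch genes 1 and 2. Cav1, the caveolae protein, was higher in AA (317 and 1145 against 139, 212 and 152 CPM), as was the endothelial transcription factor Sox18 (297 and 836 against 233, 249 and 91.5 CPM). Of 12 proximal tubule genes tested, 5 were lower in AA without overlap and 0 higher (median log2 fold change -3.74). The 12 include Slc34a1, which the rule limits to 1 UMI in a member. Miox was at 169, 156 and 10.6 CPM in vehicle and 1.53 and 0 in AA, where 0 UMIs in library 2 allow up to 54.5 CPM. The other cells held 3318, 3909 and 406 CPM of Miox in vehicle libraries and 189 and 1037 CPM in AA, and their part in the result was not tested.

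Angiogenic genes also had several members on the higher side, with 4 of 12 tip-like genes higher without overlap and 2 lower, both at 0 UMIs in AA library 2 (median log2 fold change 0.60). Of all genes tested, 9.62% were higher and 12.1% lower without overlap. The apelin receptor gene Aplnr was at 25.7, 23.9 and 48.9 CPM in SARAWT vehicle and 70.3 and 182 in SARAWT AA libraries 1 and 2, and the other higher genes included Col4a1 and Col4a2, described above. Angpt2, a ligand that loosens vessels, was at 24.5 and 0 CPM in AA and 36.4, 92.8 and 41.5 in vehicle, and the chemokine receptor gene Cxcr4 at 3.06 and 0 CPM in AA and 4.28, 5.30 and 4.26 in vehicle. For both, the 0 of AA library 2 allows up to 54.5 CPM, above 2 and 3 of the vehicle libraries. The ligand gene Apln overlapped, at 4.28, 0 and 46.8 CPM in vehicle and 30.6 and 0 in AA. The VEGF receptor gene Kdr was at 1566, 822 and 508 CPM in vehicle and 451 and 854 in AA, and its coreceptor Nrp1 at 1245, 819 and 444 CPM in vehicle and 407 and 654 in AA, each with AA library 2 inside the vehicle range. For both genes SARAWT vehicle library 1 was the highest and libraries 2 and 3 followed, so the vehicle libraries differed by more than the 2 AA libraries. Kdr was at 1717 and 1086 CPM in SARATg vehicle and 789 CPM in SARATg AA.

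**Figure D4:**
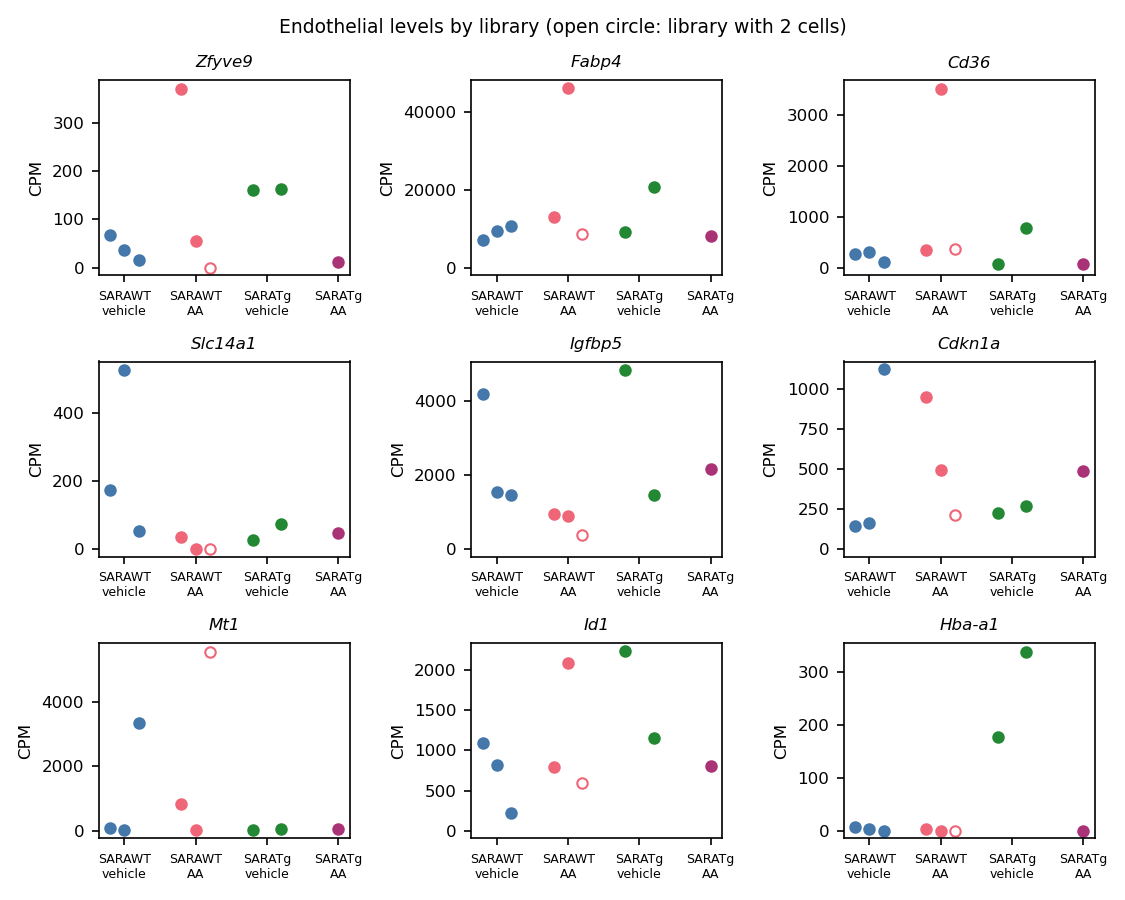
Level of 9 genes in the endothelial cells of each library (CPM, linear scale, 1 panel a gene), with libraries grouped by genotype and treatment. Open circles mark SARAWT AA library 3, which holds 2 cells. Zfyve9 is highest in the library labelled SARAWT AA 1, Fabp4 and Cd36 in SARAWT AA library 2, and Hba-a1 is above 100 CPM in the 2 SARATg vehicle libraries alone.

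The comparison of SARATg with SARAWT vehicle asked what the transgene changed without AA. Of 10031 genes, 2 were called by edgeR (0.0199%), both hemoglobin genes. Hba-a1 was at 6.42, 2.65 and 0 CPM in SARAWT vehicle and 178 and 337 in SARATg vehicle (log2 fold change 6.70 ± 0.67 SE, edgeR adjusted p = 0.0102), and Hba-a2 at 0, 2.65 and 0 CPM in SARAWT and 170.3 and 215 CPM in SARATg (8.09 ± 0.79, edgeR adjusted p = 0.0102). In each SARATg vehicle library, however, 1 cell held nearly all of these UMIs. It held 2533 of 2552 UMIs of 4 hemoglobin genes in library 1 and 2008 of 2044 in library 2, where it was a predicted doublet, and the other 690 and 387 cells held 19 and 36 UMIs. The levels behind the call thus came mostly from 1 cell in each of the 2 libraries. No gene was called without predicted doublets (edgeR, 0 of 9827 genes, 352 at an unadjusted p under 0.05), where the log2 fold changes were 5.25 for Hba-a1 and 6.95 for Hba-a2 and the cell of library 1, which was no predicted doublet, stayed in. Groups did not overlap on the higher side for 8.21% of the genes tested and on the lower side for 8.2%, the median log2 fold change over all genes was -0.03, and without the libraries labelled SARAWT AA 1 and SARATg AA 1 there was 1 call.

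Of 18 BMP and TGF-beta signalling genes other than Zfyve9 itself, 5 were higher and 1 lower without overlap in SARATg vehicle, against 8.21 and 8.2% of all genes tested. Their median log2 fold change was 0.13, and none passed the adjusted test. Id1, a direct target of BMP signalling, was at 1091, 825 and 218 CPM in SARAWT vehicle and 2237 and 1149.7 in SARATg vehicle, and Id3 at 1572, 1334 and 239 CPM in SARAWT and 2890.0 and 1827 CPM in SARATg. The inhibitory Smads were also higher: Smad6 at 74.6 and 69.4 against 42.8, 23.9 and 54.3 CPM and Smad7 at 428 and 273 against 269.6, 167 and 41.5 CPM. For Id1, Id3 and Smad7 the lowest SARAWT library was library 3, and SARAWT libraries 1 and 2 were nearer to SARATg. The receptor Tgfbr2 was at 190.4, 215 and 173 CPM in SARAWT and 237 and 257 in SARATg. The ligand Bmp4 was lower, at 6.81 and 16.2 against 19.3, 55.7 and 77.7 CPM. The receptors Eng and Acvrl1 overlapped, at 1206 and 657 against 1044, 819 and 711 CPM and 166 and 114 against 137, 178 and 172 CPM. Marker genes of other cells moved in the same comparison. The 4 collecting duct genes summed to 5.68 and 488 CPM in SARATg vehicle and 2.14, 5.30 and 4.26 CPM in SARAWT vehicle, with 2 of 4 higher without overlap (median log2 fold change 5.05, 0 called). The 7 pericyte and smooth muscle genes summed to 9.08 and 389 CPM in SARATg vehicle and to 29.9, 34.5 and 119 CPM in SARAWT vehicle, and 1 of 6 tested was higher without overlap (median 2.41, 0 called). Both high sums were those of SARATg vehicle library 2, and the part of such cells in these gene groups was not tested.

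Of 16 VEGF, angiopoietin and Notch genes, 4 were higher and 2 lower without overlap (median log2 fold change 0.14), against 8.21 and 8.2% of all genes tested. The receptor Notch1 was at 227, 178 and 129 CPM in SARAWT vehicle and 312 and 259 in SARATg vehicle, and its ligand Dll4 at 105, 66.3 and 63.8 CPM in SARAWT and 139 and 130.0 CPM in SARATg. The Notch target genes Hes1 (462 and 325 against 197, 191 and 188 CPM) and Hey1 (88.2 and 38.4 against 34.2, 31.8 and 2.13 CPM) were higher as well. In SARATg vehicle library 2, Hey1 was only little above SARAWT libraries 1 and 2. Notch4 and the ligand Jag2 were lower, the latter at 35.2 and 33.0 against 53.5, 66.3 and 48.9 CPM. Sox18 was at 233, 249 and 91.5 CPM in SARAWT and 621 and 504 in SARATg (log2 fold change 1.61 ± 0.44 SE, edgeR adjusted p = 1). Of 9 descending vasa recta genes, 4 were lower without overlap and 0 higher (median log2 fold change -1.47, 0 called), and the summed levels overlapped (2032 and 4264 CPM against 3002 to 7086 CPM), with Aqp1 at 105 and 532 against 546, 2745 and 701 CPM and S100a4 at 41.3 and 86.2 against 160.4, 159 and 208 CPM. Cluster 5, which carried these genes, also held a smaller share of the members in SARATg vehicle (2.17 and 6.70%) than in SARAWT vehicle (10.2, 21.4 and 7.45%), so the mix of cells and the levels within them cannot be told apart. Of 29 interferon and class I genes, 0 were without overlap in either direction, and of 10 peritubular capillary genes also 0.

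In SARATg AA, a single library, no gene was called against SARAWT AA (edgeR, 0 of 10031 genes, 0%, 201 at an unadjusted p under 0.05, 0 by DESeq2) and none had another AA effect in SARATg than in SARAWT (0 genes, 0%, 174 at an unadjusted p under 0.05, 2 by DESeq2). This library's label goes against its Zfyve9 level, and the fits assume that it varies like the other groups. It also differed from both SARAWT AA libraries in Xist and Ddx3y, as given above, so sex and group cannot be told apart here. In it, Fabp4 was at 8181, Cd36 at 82.7 and Lpl at 5.90 CPM, all below both SARAWT AA libraries, as were 23.2% of all genes tested (32.1% lay above both), while Igfbp5 was at 2162 and Esm1 at 1304 CPM, against 508 and 127 CPM of Esm1 in SARAWT AA. No gene had another AA effect in SARAWT endothelial cells than in all other kept cells of the same libraries (edgeR, 0 of 15079 genes, 0%, 783 at an unadjusted p under 0.05, 11 by DESeq2). Without SARAWT vehicle library 3, 1056 genes were called in that test, without vehicle library 1 it was 43 and without library 2 it was 12.

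The same rule was applied to the 8 skin libraries of the series, in which 258 of 30085 kept cells were members (0.369 to 1.92% per library). These came from SARAWT or SARATg mice with the same Cre and reporter, given bleomycin at 20 mg/kg or PBS subcutaneously. The comparison, added after the data were seen, set the 8 kidney libraries against the 7 skin libraries with at least 10 members and asked which genes kidney endothelium expresses apart from that of another organ in the same sort. Of 5973 genes tested with edgeR, 852 were higher in kidney (14.3%) and 967 lower (16.2%) at an adjusted p of 0.05, with 2478 at an unadjusted p under 0.05. Skin libraries were counted with other gene lists and other releases of Cell Ranger, so tissue and processing cannot be told apart. The 4 rule genes are not counted as findings.

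The named genes higher in kidney included the transcription factors Meis2 and Irx5, and 3 more homeodomain factors, Irx3, Hoxb7 and Hoxd8, were chosen after their values were seen. Meis2, a TALE homeodomain factor, had a lowest, median and highest level of 364, 869 and 1493 CPM in the kidney libraries and 0, 23.2 and 64.7 CPM in the skin libraries (log2 fold change 4.94 ± 0.50 SE, edgeR adjusted p = 1.75e-06). The Iroquois factors Irx3 and Irx5 were also higher, Irx3 at 145, 212 and 408 against 10.5, 14.1 and 44.8 CPM (3.5 ± 0.37) and Irx5 at 72.7, 100.1 and 208 against 0, 2.36 and 25.9 CPM (4.26 ± 0.50, edgeR adjusted p = 8.33e-06). For Irx3, which the naming rule did not pick, every kidney library was also above every skin library. In other kidney cells Meis2 was at 1.52 to 15.5 CPM and Irx5 at 0.534 to 3.70 CPM. The log2 difference was 0.96 for Hoxb7 (edgeR adjusted p = 0.00753) and -1.06 for Hoxd8 (edgeR adjusted p = 0.00502).

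Among the other named genes, Ramp3 and Tbxa2r act in receptors for vasoactive signals. Ramp3, whose promoter is printed above, had a lowest, median and highest level of 204, 406 and 546 CPM in the kidney libraries and 0, 2.58 and 17.8 CPM in the skin libraries (log2 fold change 6.01 ± 0.47 SE, edgeR adjusted p = 9.78e-08). The thromboxane receptor gene Tbxa2r was at 67.0, 139 and 246 CPM in kidney and 0, 4.71 and 10.7 in skin (4.79 ± 0.44, edgeR adjusted p = 6.2e-07), and the endothelin B receptor gene Ednrb at 582, 956 and 1303 CPM in kidney and 14.2, 120.3 and 192 CPM in skin (2.86 ± 0.36). Npr3 differed by 3.99 ± 0.65 on the log2 scale and the flow-induced factor Klf2 by 2.07 ± 0.32 (699, 1479.9 and 2048 against 101, 354 and 608 CPM), whereas its relative Klf4 was lower in kidney (-1.54 ± 0.35). Of 12 flow-responsive and vasomotor genes, the list that holds Ednrb, 2 were higher and 3 lower, against 14.3 and 16.2% of all genes. Ptpru, a receptor tyrosine phosphatase, had the largest difference by the naming rule among the higher genes, with 1034 UMIs in kidney and 1 in skin, a ratio of 304 per UMI sequenced (exact 95% interval 54.5 to 12021). That interval covers counting error over the summed UMIs only, and the ratio rests on 1 skin UMI. Without skin SARAWT PBS library 1 the fitted log2 fold change of Ptpru went from 7.43 to 9.38.

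Capillary genes followed. Of 10 peritubular capillary genes, 7 were higher in kidney and 0 lower, against 14.3 and 16.2% of all genes. Their median log2 difference was 2.29, against 0 over all genes. Esm1, the endocan gene, had a lowest, median and highest level of 127, 879 and 2387 CPM in the kidney libraries and 0, 17.3 and 70.6 CPM in the skin libraries (log2 fold change 5.03 ± 0.70 SE, edgeR adjusted p = 3.89e-05). Igfbp5 differed by 2.73 ± 0.54, Plvap by 2.23 ± 0.41 and the coagulation factor gene F8 by 3.30 ± 0.58, and Ehd3 by 3.33 ± 0.61 (edgeR adjusted p = 0.000518). Of 13 junction and fenestra genes, 5 were higher and 0 lower, among them the tight junction gene Cldn15 (2.52 ± 0.38). The 13 include Pecam1 and Cdh5, by which the cells were chosen, so this count is not free of the rule. Mal, a membrane raft proteolipid, was at 145, 672 and 928 CPM in kidney and 0, 0 and 16.5 in skin (6.20 ± 0.56), and Tspan8, a tetraspanin, at 46.6, 322 and 536 CPM in kidney and 0, 0 and 21.2 CPM in skin (5.26 ± 0.65), with 29.6 to 130.0 and 4.89 to 40.1 CPM in the other kidney cells. Fxyd2, a subunit of the sodium pump known from tubules, also passed (6.12 ± 0.77), but the other kidney cells held 857 to 7147 CPM of it, and the part of free RNA was not tested.

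Of 29 interferon and class I genes, 14 were called higher in kidney and 1 lower (median log2 difference 0.61), against 14.3 and 16.2% of all genes. Rsad2, encoding the antiviral protein viperin, had a lowest, median and highest level of 491, 834 and 1479 CPM in the kidney libraries and 14.1, 72.9 and 99.3 CPM in the skin libraries (log2 fold change 3.59 ± 0.36 SE, edgeR adjusted p = 1.75e-06). Ifit3 differed by 2.35 ± 0.33, Ifi44 by 2.60 ± 0.41 and the immunoproteasome subunit gene Psmb8 by 1.56 ± 0.21, whereas the lower gene was Iigp1, an interferon-induced GTPase (-1.87 ± 0.56). Of 4 class II genes tested, 3 were higher and 0 lower, and these are also genes of the leukocytes in the sort, with Cd74 at 984 to 12957 CPM in other kidney cells.

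Genes lower in kidney than in skin included chemokine and stress genes. Of these, Ccl2, Cxcl1 and Hspa1b were named without the condition of being at least 2 times as high in endothelial as in other skin cells. The part of other skin cells and of free RNA in their levels was not tested. Counts over gene lists stand against 14.3% of all genes called higher and 16.2% called lower. Ccl2, a monocyte chemoattractant, had a lowest, median and highest level of 0, 2.13 and 15.4 CPM in the kidney libraries and 146, 299 and 1863 CPM in the skin libraries (log2 fold change -7.34 ± 0.84 SE, edgeR adjusted p = 6.55e-06). Cxcl1 differed by -6.70 ± 0.81, and of 10 adhesion and chemokine genes 1 was higher and 6 lower, Icam1 by -2.51 ± 0.55. The higher gene was Icam2 (1.51 ± 0.27). Of 18 immediate early and heat shock genes, 13 were lower and 0 higher (median log2 difference -2.58). Hspa1b, an inducible heat shock protein gene, had a lowest, median and highest level of 3.54, 10.3 and 54.5 CPM in the kidney libraries and 321, 948 and 1803 CPM in the skin libraries (log2 fold change -6.48 ± 0.48 SE, edgeR adjusted p = 5.68e-08). Egr1 was at 15, 82.7 and 167 CPM in kidney and 269, 1144 and 2367 in skin (-3.80 ± 0.52), and Fos differed by -2.98 ± 0.47. Of 21 mesenchymal and matrix genes, 11 were lower and 0 higher (median -1.44), with Vim, the intermediate filament vimentin, at 179, 619.6 and 1294 against 1713, 4382 and 12824 CPM (-3.11 ± 0.48) and Fn1, fibronectin, -4.77 ± 0.69. Lipid uptake genes did not set the tissues apart as a group (1 of 9 higher, 1 lower), and Cd36 was at 71.2, 298 and 3508 CPM in kidney and 85.2, 768 and 2625 in skin (-1.03 ± 0.80, edgeR adjusted p = 0.352). With only SARAWT vehicle and SARAWT PBS libraries, 831 genes were called, and 1295 were called without the libraries labelled SARAWT AA 1 and SARATg AA 1.

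Among genes at least 2 times as high in endothelial as in other cells of the skin libraries, those lower in kidney by the naming rule were led by Egr3, an immediate early factor. Egr3 was at 0, 0.590 and 7.96 CPM in kidney and 37.7, 70.8 and 175 CPM in skin (lowest, median, highest), with a log2 fold change of -6.07 ± 0.57 (edgeR adjusted p = 6.59e-07). Flnc, an actin crosslinker, was at 0, 0.715 and 9.58 CPM in kidney and 33.0, 51.6 and 85.5 CPM in skin (-4.66 ± 0.47), Actn1, an alpha-actinin, differed by -3.40 ± 0.41, and the PDZ and LIM domain genes Pdlim1 and Pdlim4 by -3.93 ± 0.54 and -4.50 ± 0.52. The protease gene Adamts4 differed by -5.64 ± 0.79, the G protein regulator Rgs16 by -4.83 ± 0.62 and the matricellular gene Cyr61 by -3.63 ± 0.36. Lars2, a mitochondrial leucyl-tRNA synthetase, and Hexim1, an inhibitor of transcription elongation, completed the 10 genes named on the lower side, with -4.36 ± 0.40 and -4.07 ± 0.52. On the higher side the remaining named genes were Plscr2, a phospholipid scramblase (309, 567 and 1410.2 CPM in kidney and 9.03, 24.3 and 60.6 CPM in skin, 4.31 ± 0.45), and Ccrl2, a chemerin-binding receptor (18.2, 92.6 and 195 CPM in kidney and 0, 2.58 and 12.2 CPM in skin, 4.11 ± 0.57). Without the condition on endothelial enrichment, Pou3f1, a POU domain factor, had 1 UMI in kidney and 96 in skin.

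**Figure D5:**
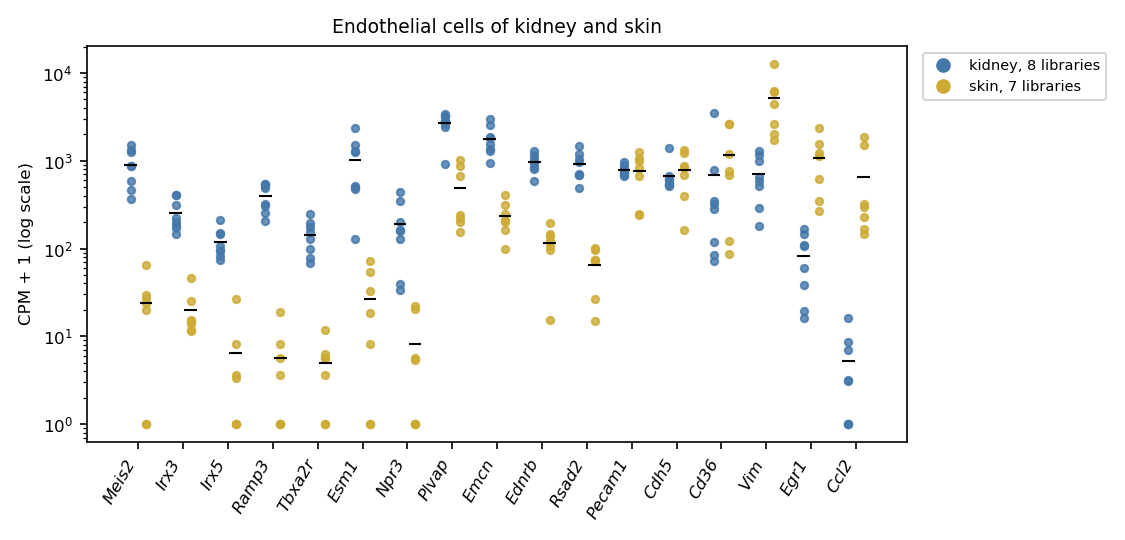
Level of 17 genes in endothelial cells of 8 kidney and 7 skin libraries (CPM + 1, log scale). Each point is 1 library and short lines are group means. Meis2, Irx3, Ramp3, Tbxa2r, Esm1, Ednrb and Rsad2 show no overlap between the tissues, Vim, Egr1 and Ccl2 are higher in every skin library, Cd36 overlaps, and Emcn, Pecam1 and Cdh5 are genes the cells were chosen by.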

How the data were processed

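Single cells of mouse kidney were captured with 3' v3 chemistry of 10x Genomics, and UMI counts per gene and barcode were deposited by the authors, made with Cell Ranger 3.0.2 on mm10 per the file headers and the submitters' processing notes (which also name Seurat 2.3.4). The 9 kidney libraries held 75562 barcodes, none under 500 UMIs, and 31053 genes. No sample was left unassigned. Kept cells, members and groups are as given above. The members and gene lists were chosen with earlier results of these data known.

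UMIs of the members were summed per library and tested with edgeR 4.0.16 in R 4.3.3 (filterByExpr, TMM, glmQLFit and glmQLFTest, Benjamini-Hochberg over all genes tested, threshold 0.05), with the 4 kidney groups in 1 fit and libraries under 10 members left out. The SE given with an edgeR log2 fold change is its absolute value divided by the square root of the F statistic. DESeq2 1.42.0 was an alternative. Shares were compared with two-sided exact permutation tests over libraries (20 or 10 assignments). Cells were clustered with scanpy 1.11.5 on 2000 variable genes (30 principal components, 15 neighbours, Leiden resolution 0.5, each library centred). A gene met the marker rule at 20 CPM or more and at least 3 times the median of the other clusters, with 10 CPM added to both. A cluster was named only where at least 3 genes of a list met that rule. Doublets were predicted at 0.8% per 1000 barcodes and kept. Genes were named by rule: up to 10 per direction with the largest fold past the threshold, no overlap of CPM, at least 10 CPM, and at least 2 times as high in endothelial as in other cells of the tissue where they were higher, up to 5 without the last condition, all members of the gene lists, Zfyve9, Pdgfrb and the leading genes of each cluster. The fit of kidney against skin (30406 shared genes) and every count without the 2 libraries whose Zfyve9 level goes against the label were added after the data were seen. On simulated counts of the same libraries, the fits called few or none of the changed genes in the comparisons within kidney and most of those changed by the larger fold between kidney and skin, so a lack of calls within kidney says little. A few genes are not reported here.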

Additional observations from a re-analysis of the deposited data

How the results depend on the processing

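Differences in endothelial share kept their direction under all alternatives run, although other denominators moved their size (given above). Calls of genes depended on filters and single libraries, with causes not tested, and the counts over gene lists were not recomputed under the alternatives. For SARAWT AA against vehicle (0 genes called), DESeq2 gave 6 and no filter on low counts 125. The fit on cells without UMIs of 8 tubule and leukocyte genes left 1 SARAWT AA library and lost SARAWT vehicle library 1 (libraries that fell below 10 such cells dropped out). SARAWT vehicle library 1 held 0 such cells among its 137 members, and SARAWT AA library 2 held 8. SARATg AA against SARAWT AA was then 1 library against 1. For SARATg against SARAWT vehicle (2 called), DESeq2 gave 5 (2 higher, 3 lower), no filter 183 (74 higher, 109 lower), those cleaner cells 13 (2 higher, 11 lower), stricter cell filters (500 genes, 10% mitochondrial UMIs) 0, at least 5 UMIs of at least 3 rule genes 0, no predicted doublets 0, endothelium-enriched genes only 0, only the vehicle libraries 1 and leaving out the 2 libraries whose Zfyve9 level goes against the label 1. The adjusted p of Hba-a1 and Hba-a2 in edgeR then reached up to 1. For SARATg AA against SARAWT AA (0), no filter gave 86 and cleaner cells 7. For the interaction (0), DESeq2 gave 2 and no filter 75. For endothelial against other cells (0), DESeq2 gave 11 and no filter 59. For kidney against skin (1819), no filter gave 3540 and only SARAWT vehicle and PBS libraries 831. The number of clusters without overlap between SARAWT AA and vehicle (4 of 8) was 1 at resolution 0.3, 2 without centring and 2 under stricter cell filters.

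Leaving out each library in turn gave share differences of -1.39 to -0.62 points for SARAWT AA and 4.87 to 9.99 for SARATg, 0 to 1 called genes for SARAWT AA, 0 to 21 for SARATg vehicle (21 without SARATg vehicle library 1, 0 without SARAWT vehicle library 2), 0 to 6 for SARATg AA, 0 to 3 for the interaction, 0 to 1056 for endothelial against other cells (1056 without SARAWT vehicle library 3), 1468 to 1905 for kidney against skin and 4 to 6 clusters. Whether the replicate numbers pair the samples is not known. The correlations of same-numbered deviations from group means ranged from -0.134 to 0.145. In a group with 2 libraries the deviations mirror each other, so these correlations cannot show whether a pairing exists. With the replicate block, the called genes were 85 for SARAWT AA, 37 for SARATg vehicle (14 higher, 23 lower, against 2 higher and 0 lower without it), 16 for SARATg AA and 12 for the interaction, the clusters 5, and the exact sign-flip p of the SARAWT AA share 0.25. Of the single named genes, Hba-a1 and Hba-a2 accounted for all 13 lost calls, and 506 other values kept direction and call.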

Other observations

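Calr3, a calreticulin gene, was at 21.4, 18.6 and 24.5 CPM in the endothelial cells of the SARAWT vehicle libraries, 26.0 and 18.2 in SARAWT AA libraries 1 and 2, 0.378 and 2.02 in SARATg vehicle and 23.6 in SARATg AA. Between the vehicle groups the log2 fold change was -4.25 ± 0.68 (SE, edgeR adjusted p = 0.214). The level in the library labelled SARATg AA 1 lay within the SARAWT range of 18.2 to 26.0 CPM, where the 18.2 CPM of SARAWT AA library 2 is 1 UMI. The library labelled SARAWT AA 1 was the highest in that range. Whether Calr3 follows the genotype was not tested.

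Akr1b3, the aldose reductase that makes the osmolyte sorbitol, was at 503, 1114 and 227 CPM in SARAWT vehicle, 67.3 and 36.4 in SARAWT AA libraries 1 and 2, 151 and 151 in SARATg vehicle and 224 in SARATg AA. Its log2 fold change after AA in SARAWT was -3.34 ± 0.68 (SE, edgeR adjusted p = 0.976), and it was highest in cluster 5, at 1591 CPM. Mgll, monoacylglycerol lipase, was at 449, 361 and 681 CPM in SARAWT vehicle and 898 and 3981 in SARAWT AA libraries 1 and 2, and it was highest in cluster 6, at 3154 CPM.

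Other high sums also came from 1 cell: 9539 of 9611 Igkc UMIs in SARAWT vehicle library 3, 201 of 211 Cxcl10 UMIs in SARAWT AA library 1 and 829 of 1711 Ren1 UMIs in SARATg vehicle library 2. In contrast, Fabp4 was found in 1749 of the 1807 cells and Cdkn1a in 859. Calr3, Akr1b3, Mgll and the genes of this paragraph were chosen after their values were seen.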
